A study of Mus musculus with 30 samples.

Results

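The genes described here are 7 components of the Nodal signalling pathway: the ligand Nodal, its co-receptors Tdgf1 and Cfc1, the secreted inhibitors Lefty1 and Lefty2, the intracellular inhibitor Smad7 and the transcription factor Foxh1. They were chosen by name from the probe set annotation, with probe sets that name a single gene, and all 7 of 7 were measured, each by 1 such probe set, among 19938 genes in all. The study measured RNA of mouse cells on 30 Affymetrix arrays, in 10 groups of 3 biological replicates, to compare endoderm made in culture from embryonic stem (ES) cells and from induced pluripotent stem (iPS) cells with endoderm of the embryo. On 18 arrays, labelled without amplification, are undifferentiated cells (day 0) and cells differentiated for 5 days, each from ES cells, iPS clone ST5 and iPS clone ST8. On 12 arrays, labelled after amplification of the RNA, are ES cells of both days and sorted cells of E8.25 embryos. Undifferentiated cells were sorted for bright Sox2, and day 5 cells were sorted as Kit-positive and Sox2-dim, so the day and the sorting gate cannot be told apart. From the embryos, foregut endoderm was sorted as positive for Epcam and the endoderm antibody ENDM1 with low side scatter, and a comparison population as Epcam-positive and ENDM1-negative. All cultured cells carried the background C57BL/6x129SvJae, without any further allele or agent named in the labels, and the embryos were of the strain Swiss webster. The ES cells are not divided into lines by the labels, and each iPS clone is a single clone, so a trait of a line or clone cannot be told apart from the way its cells were made.

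Nodal is a secreted ligand of the TGF-beta family. It binds activin receptors together with a membrane-anchored co-receptor of the EGF-CFC family, Tdgf1 (Cripto) or Cfc1 (Cryptic). The receptors phosphorylate Smad2 and Smad3, which enter the nucleus with Smad4 and act at target genes through partners such as Foxh1. Among the targets are Nodal itself and the Lefty genes, whose products block Nodal and its co-receptors. In the embryo the pathway maintains the epiblast, drives formation of mesoderm and endoderm at the primitive streak and later sets the left-right axis.

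RefSeq promoter sequences (mouse assembly GRCm38.p6) were matched for 3 of the 7 genes, Nodal, Tdgf1 and Cfc1. They are shown because Tdgf1 and Cfc1, which serve as co-receptors of the same ligand, moved in opposite directions between day 0 and day 5. Each run below is the 250 bases before the annotated transcript start, 5′ to 3′ on the strand of the gene, and capitals mark matches to the motifs searched. The Nodal window is chr10:61417722-61417971 on the plus strand, the Tdgf1 window chr9:110946159-110946408 on the minus strand and the Cfc1 window chr1:34535398-34535647 on the plus strand.
Nodal: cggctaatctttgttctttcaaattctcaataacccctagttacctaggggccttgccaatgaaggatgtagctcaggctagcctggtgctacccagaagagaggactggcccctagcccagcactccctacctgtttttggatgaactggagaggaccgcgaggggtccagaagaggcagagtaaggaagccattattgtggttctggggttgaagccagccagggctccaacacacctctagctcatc
Tdgf1: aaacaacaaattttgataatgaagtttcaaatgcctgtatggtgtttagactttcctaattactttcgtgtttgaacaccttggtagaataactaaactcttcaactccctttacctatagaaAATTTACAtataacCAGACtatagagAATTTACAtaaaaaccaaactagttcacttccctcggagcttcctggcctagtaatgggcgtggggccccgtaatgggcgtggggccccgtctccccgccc
Cfc1: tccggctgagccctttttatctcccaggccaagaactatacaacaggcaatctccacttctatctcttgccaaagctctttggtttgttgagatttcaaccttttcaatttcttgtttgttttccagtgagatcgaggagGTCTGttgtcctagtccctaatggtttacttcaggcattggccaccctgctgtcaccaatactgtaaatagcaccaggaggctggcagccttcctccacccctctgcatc
The motifs searched on both strands were AATNNACA, CAGAC, the Smad box, and the octamer ATGCNAAT. AATNNACA is a loosened form of the Foxh1 motif that allows any base at NN. The Tdgf1 window held 2 matches to AATNNACA, whose first bases lie 127 and 101 bases upstream of the start, and between them 1 CAGAC at 113 bases, with no overlap of the matches. Both matches to AATNNACA read AATTTACA. A stricter form of the Foxh1 motif was not searched, so they are matches to the loosened pattern only. In the Cfc1 window there was 1 Smad box on the opposite strand, read there as GTCTG, 110 bases upstream. No match to any of the 3 motifs was found in the Nodal window, and no octamer in any of the 3. Among 32851 promoters of the same length, 10.9% held AATNNACA, 42.2% CAGAC and 2.86% the octamer. A match describes letters in a short window and is not evidence of a bound site. Lefty1, Lefty2, Foxh1 and Smad7 are given by name alone. Lefty1 and Lefty2 lie on the same chromosome in this assembly.

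Values are log2 expression as deposited. A difference is given on the log2 scale, followed after ± by its standard error from limma, with 3 arrays per group. A difference was called where its Benjamini-Hochberg adjusted p over all 19938 genes lay under 0.05. Levels are compared within a gene and within a labelling, never between genes, whose probe sets differ in brightness. Array medians lay between 5.50 and 5.57 without amplification and between 5.70 and 5.74 with it. Definitive endoderm markers were higher at day 5 in 8 of 8 cases in each line, and the foregut cells had 7 of 8 higher than the ENDM1-negative cells, as their labels say. Among the 9 unamplified day 5 arrays 2 stood apart from their group, ES replicate 1 and ST8 replicate 2, and amplified ES day 5 replicate 1 stood apart in the same way as the former. Nanog, a core pluripotency factor, stood at 8.18 against 9.24 and 9.24 in ES cells, at 6.85 against 9.93 and 9.84 in ST8 and at 7.80 against 9.32 and 9.29 in amplified ES cells. Where leaving out 1 of these 3 arrays changed the call of a difference reported here for the 7 genes, turned its sign or moved it by over 1.5 times, the value without that array is given too. Whether the amplified ES arrays hold RNA of the same cultures as the unamplified ones was not tested. A like result on both is therefore not counted as a separate replication. In sorted bulk samples, fewer cells of a type and less RNA per cell cannot be told apart.

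Between day 0 and day 5 the 7 genes did not move together. Cfc1 rose in all 3 lines and Lefty1 rose in all 3, Nodal and Smad7 fell in ES cells and ST5, Foxh1 rose in ST5 and ST8, and Tdgf1 fell in ST5 and ST8. In ES cells 2 of 7 genes were called higher, beside 18.9% of all genes, and 2 of 7 lower, beside 19.7%. In ST5 3 of 7 were higher, beside 23.2%, and 3 of 7 lower, beside 24.8%. In ST8 3 of 7 were higher, beside 21% of all genes, and 1 of 7 lower, beside 19.5%. On amplified RNA, 1 of 7 was higher in ES cells at day 5, beside 13%, and 1 of 7 lower, beside 13.8%. The median difference of the 7 genes was -0.05 for ES cells, -0.23 for ST5 and 0.48 for ST8, against 0.02, -0.04 and -0.01 over all genes.

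**Figure D1:**
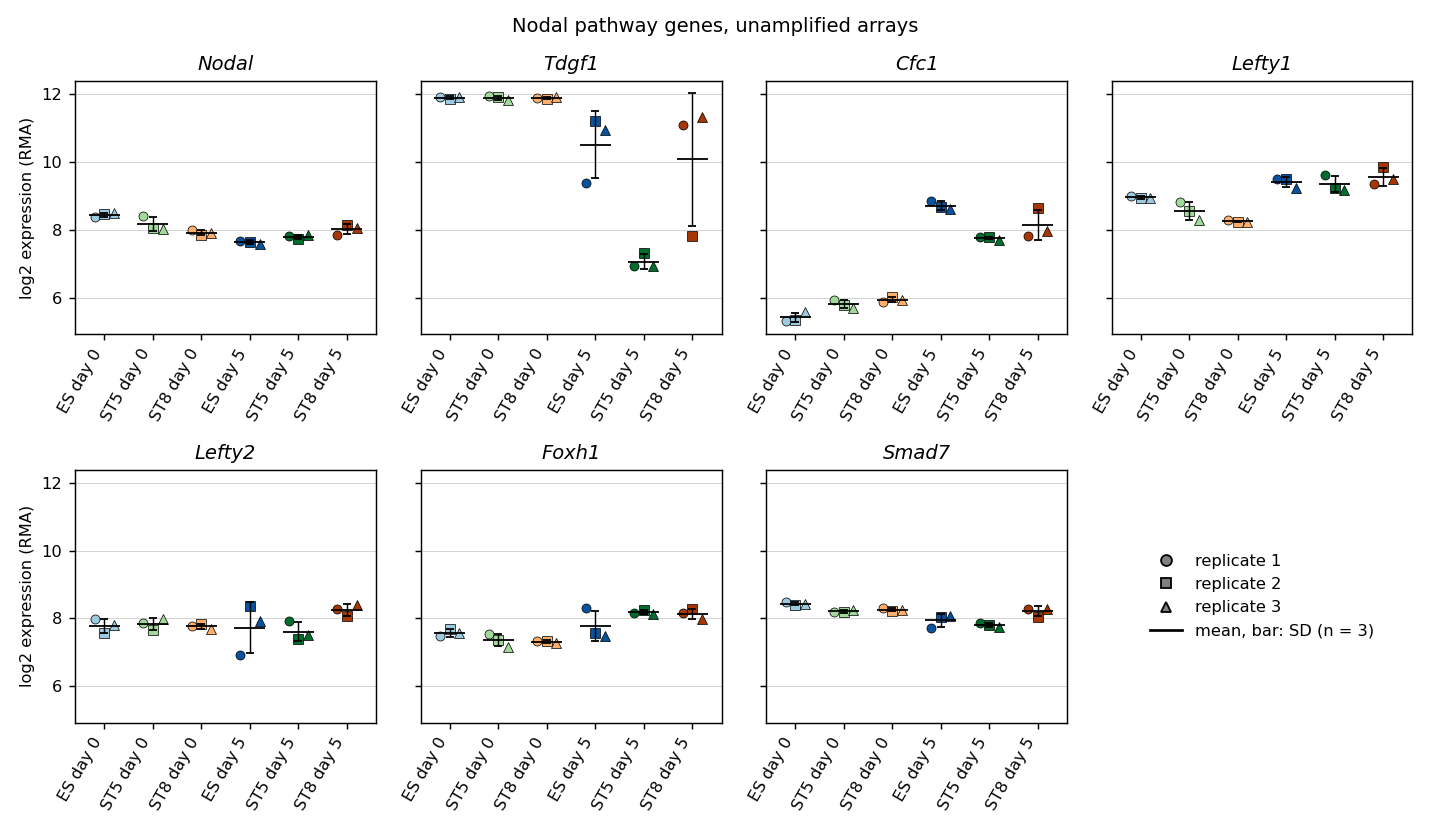
Log2 expression (vertical axis) of the 7 Nodal pathway genes on the 18 unamplified arrays, by line and day (horizontal axis). Marker shapes give the replicate, lines the mean and bars the SD of 3 arrays; all 9 Cfc1 values at day 5 lie above all 9 at day 0, and the Tdgf1 values at day 5 run from 6.92 to 11.32.

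Nodal, the ligand, fell in ES cells. The ES arrays read 8.38, 8.46 and 8.48 at day 0 and 7.68, 7.65 and 7.57 at day 5. No day 5 array reached the lowest day 0 array, and the difference was -0.81 ± 0.09 (adjusted p = 3.40e-06). ST5 read 8.39, 8.05 and 8.02 at day 0 and 7.82, 7.72 and 7.83 at day 5, again without overlap, a difference of -0.36 ± 0.09 (adjusted p = 0.00364). In ST8 the values at day 0 were 7.98, 7.83 and 7.91, already close to the day 5 values of the other lines, and those at day 5 were 7.84, 8.13 and 8.04. These overlap, and the difference of 0.10 ± 0.09 was not called (adjusted p = 0.458; 0.036 without day 5 replicate 2). From the highest mean to the lowest the order was ES day 0, ST5 day 0, ST8 day 5, ST8 day 0, ST5 day 5 and ES day 5, and of the neighbours in it only the last pair had arrays that did not overlap.

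Amplified ES RNA gave a Nodal fall too. The day 0 arrays read 6.87, 6.96 and 7.20 and the day 5 arrays 6.61, 6.46 and 6.37, which do not overlap, with a difference of -0.53 ± 0.11 (adjusted p = 0.00222). Under every alternative processing and without any single array the Nodal calls in ES cells, ST5 and amplified ES cells were kept.

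Tdgf1, the co-receptor also used as a marker of pluripotent cells, started at nearly the same level in every line and spread widely at day 5. At day 0 the 9 arrays lay between 11.83 and 11.94. At day 5 the ST5 arrays read 6.92, 7.31 and 6.94, a difference of -4.83 ± 0.64 from day 0 or a 28.5-fold lower level (adjusted p = 8.57e-06). ES cells read 9.38, 11.21 and 10.93 at day 5, each below every day 0 array, and the difference of -1.39 ± 0.64 was not called (adjusted p = 0.104). The low value is that of replicate 1, and without it the difference was -0.82 (adjusted p = 0.373). With only the ES groups in the fit the same difference was called (adjusted p = 0.0349). ST8 read 11.10, 7.81 and 11.32 at day 5, where replicate 2 lay near the ST5 arrays and the others near day 0. Its difference of -1.81 ± 0.64 was called (adjusted p = 0.0325), and without replicate 2 it was -0.68 and not called (adjusted p = 0.132). The ST8 call was also lost without ST8 day 0 replicate 1, 2 or 3 (adjusted p = 0.0721, 0.0685 and 0.0734) and in fits with only the ST8 groups (0.16) or with a robust spread and intensity trend (0.0600).

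Amplified ES cells read 12.35, 12.38 and 12.28 for Tdgf1 at day 0 and 10.99, 11.98 and 11.95 at day 5. Every day 5 array lay below every day 0 array, with replicate 1 the lowest, and the difference of -0.69 ± 0.41 was not called (adjusted p = 0.256). Without that array it was -0.37 (adjusted p = 0.605). Over the 18 unamplified arrays the Tdgf1 level went with that of Nanog at r = 0.988 and with that of Pou5f1, another core pluripotency factor, at r = 0.926. These are descriptions over arrays that share lines and days. The arrays low in Tdgf1 at day 5 were those low in Nanog: ST5 at 5.96, 6.58 and 5.78, ST8 replicate 2 at 6.85 and ES replicate 1 at 8.18.

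**Figure D2:**
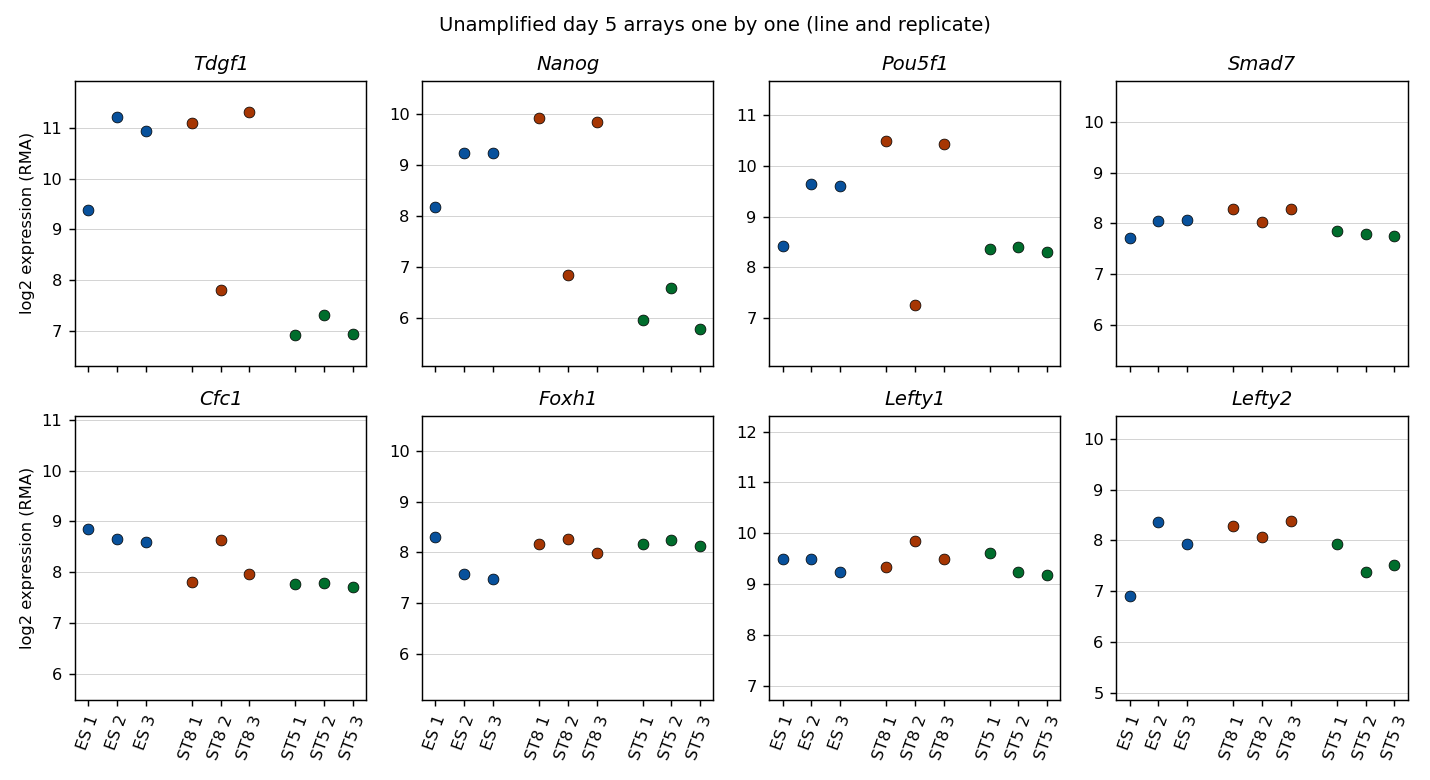
Log2 expression (vertical axes, each spanning the same number of log2 units) on the 9 unamplified day 5 arrays, named by line and replicate on the horizontal axis, for Tdgf1, Nanog, Pou5f1, Smad7, Cfc1, Foxh1, Lefty1 and Lefty2. ST8 replicate 2 lies at 7.81 for Tdgf1 against 11.10 and 11.32 in replicates 1 and 3, and ES replicate 1 at 9.38 against 11.21 and 10.93.

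Cfc1, the second EGF-CFC co-receptor, known from left-right patterning and from the embryo's mesoderm and endoderm, rose in every line. ES cells read 5.32, 5.34 and 5.58 at day 0 and 8.85, 8.65 and 8.60 at day 5, a rise of 3.29 ± 0.15 or 9.77-fold (adjusted p = 1.18e-10). The ST5 arrays read 5.94, 5.77 and 5.70 at day 0 and 7.78, 7.78 and 7.71 at day 5, a rise of 1.95 ± 0.15 or 3.87-fold (adjusted p = 3.16e-08). For ST8 the values were 5.85, 6.01 and 5.94 at day 0 and 7.80, 8.64 and 7.96 at day 5, a rise of 2.20 ± 0.15 or 4.59-fold (adjusted p = 1.19e-08). No day 5 array of any line overlapped with day 0. The day 0 means lay near the array median, below it in ES cells (5.41) and above it in ST5 (5.80) and ST8 (5.94). The folds are thus taken from a low signal. Within ST8 the highest Cfc1 value was that of replicate 2, the array lowest in Tdgf1. Amplified ES cells read 5.65, 5.78 and 5.98 at day 0 and 8.53, 8.11 and 8.05 at day 5, a rise of 2.43 ± 0.13 (adjusted p = 2.98e-08). These 4 calls were kept under each alternative and without any single array.

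Lefty1, a secreted inhibitor that is itself a target of the pathway, rose in the 3 lines. The day 0 level was highest in ES cells, at 8.99, 8.93 and 8.93, and lowest in ST8, at 8.27, 8.24 and 8.23, with ST5 at 8.80, 8.54 and 8.28. By day 5 the lines overlapped, with ES cells at 9.50, 9.50 and 9.23, ST5 at 9.61, 9.24 and 9.17 and ST8 at 9.34, 9.85 and 9.49. The rise read smallest in ES cells, 0.46 ± 0.14 (adjusted p = 0.0171), then 0.80 ± 0.14 in ST5 (adjusted p = 0.000164) and 1.31 ± 0.14 in ST8 (adjusted p = 1.62e-06). With all arrays no difference between these rises was called. Less the ES rise, that of ST5 was 0.34 ± 0.20 (adjusted p = 0.309) and that of ST8 0.85 ± 0.20 (adjusted p = 0.0629). ST8 less ST5 gave 0.51 ± 0.20 (adjusted p = 0.167). In each line the arrays of the days did not overlap. The ES call did not hold when ES day 5 replicate 1 was left out (0.41, adjusted p = 0.0564), or replicate 2 (0.41, adjusted p = 0.0610). On amplified RNA Lefty1 read 7.64, 7.52 and 7.30 at day 0 and 8.10, 8.04 and 7.57 at day 5, which overlap, and 0.42 ± 0.23 was not called (adjusted p = 0.223).

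Lefty2, the neighbouring and closely related inhibitor, was called in none of the 4 comparisons of the days. ES cells read 7.97, 7.56 and 7.82 at day 0 and 6.91, 8.35 and 7.93 at day 5, where replicate 1 was the lowest of all 18 arrays and replicate 2 close to the highest. The difference of -0.05 ± 0.25 (adjusted p = 0.9) became 0.35 with ES day 5 replicate 1 left out (adjusted p = 0.118) and 0.04 with ES day 0 replicate 1 left out (adjusted p = 0.942). ST5 read 7.87, 7.64 and 7.98 at day 0 and 7.93, 7.38 and 7.51 at day 5, a difference of -0.23 ± 0.25 (adjusted p = 0.498). ST8 read 7.78, 7.82 and 7.69 at day 0 and 8.29, 8.06 and 8.39 at day 5. The ST8 arrays of the days did not overlap, and the difference of 0.48 ± 0.25 (adjusted p = 0.151) was called with only the ST8 groups in the fit (adjusted p = 0.00927). Amplified ES cells gave 0.11 ± 0.27 (adjusted p = 0.827), from 7.09, 7.45 and 6.86 to 7.08, 7.44 and 7.21, and the difference was 0.19 without day 5 replicate 1 (adjusted p = 0.736) and -0.03 without day 0 replicate 3 (adjusted p = 0.969).

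Smad7, which blocks the receptors inside the cell and is induced by TGF-beta family signals, fell in ES cells and ST5. ES cells read 8.47, 8.38 and 8.43 at day 0 and 7.71, 8.04 and 8.07 at day 5, a difference of -0.49 ± 0.09 (adjusted p = 0.000302). The ST5 arrays went from 8.18, 8.19 and 8.254 to 7.86, 7.80 and 7.75, a difference of -0.41 ± 0.09 (adjusted p = 0.000968). In both lines the days did not overlap. ST8 read 8.30, 8.21 and 8.251 at day 0 and 8.29, 8.03 and 8.29 at day 5, with replicate 2 lowest, and its -0.05 ± 0.09 was not called (adjusted p = 0.716) and became 0.03 without that replicate (adjusted p = 0.814). Amplified ES cells read 7.02, 6.77 and 6.83 and then 6.36, 6.68 and 6.73. There the arrays did not overlap and -0.28 ± 0.11 was not called (adjusted p = 0.0740; -0.17 without day 5 replicate 1), but was called after quantile normalization (-0.33, adjusted p = 0.0345), with dim genes left out (adjusted p = 0.0456) and without ES day 5 replicate 3 (-0.35, adjusted p = 0.0489).

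Foxh1, the DNA-binding partner of Smad2 and Smad3, rose in both iPS clones. ST5 read 7.54, 7.36 and 7.17 at day 0 and 8.17, 8.24 and 8.12 at day 5, a rise of 0.82 ± 0.16 (adjusted p = 0.000358). ST8 read 7.34, 7.34 and 7.27 at day 0 and 8.16, 8.26 and 7.98 at day 5, a rise of 0.82 ± 0.16 (adjusted p = 0.000453). The clones' day 5 arrays all lay above their day 0 arrays. ES cells read 7.47, 7.69 and 7.56 and then 8.29, 7.57 and 7.48, so that only day 5 replicate 1 stood at the level of the clones. The ES difference of 0.21 ± 0.16 (adjusted p = 0.346) was -0.05 without it (adjusted p = 0.762). On amplified RNA the values were 6.37, 6.20 and 6.03 at day 0 and 6.58, 5.93 and 6.41 at day 5, a difference of 0.11 ± 0.17 (adjusted p = 0.721) that was -0.03 without day 5 replicate 1 (adjusted p = 0.929).

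**Figure D3:**
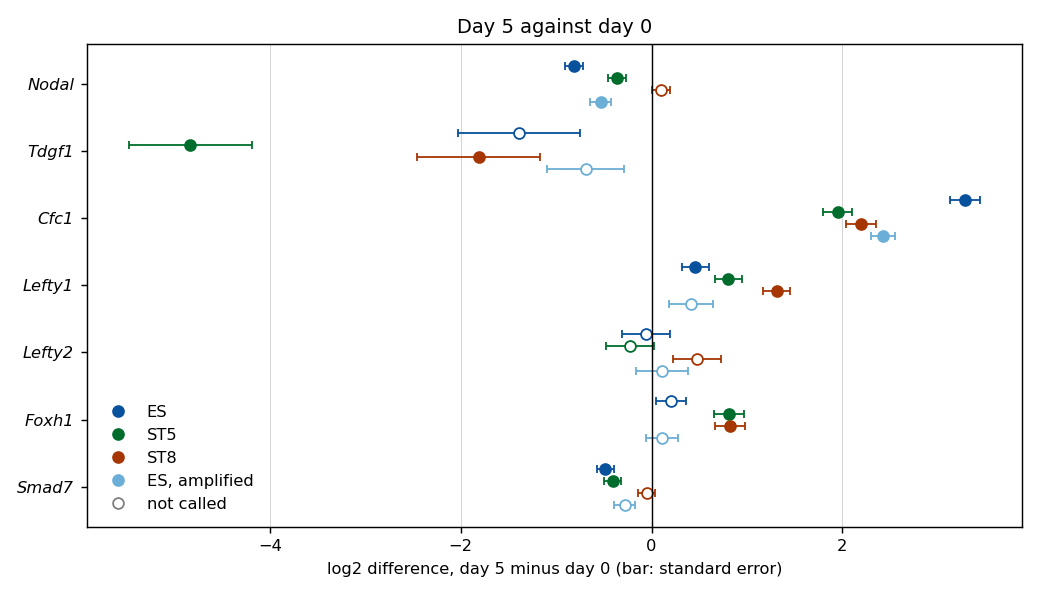
Differences of day 5 minus day 0 on the log2 scale (horizontal axis, bars give the standard error) for the 7 genes (vertical axis) in ES cells, ST5, ST8 and amplified ES cells. Filled points were called at an adjusted p under 0.05 and open points were not; Cfc1 lies right of 0 in all 4 comparisons, from 1.95 to 3.29, and Tdgf1 left of 0, from -0.69 to -4.83.

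Markers of other cells moved over the same days. Of 7 measured fibroblast markers, 7 were lower at day 5 in each line, and their mean level per array lay at 7.63 to 7.99 for ES cells, 7.91 to 8.19 for ST5 and 7.87 to 8.20 for ST8 at day 0. At day 5 it lay at 4.90 to 5.34, 4.87 to 4.93 and 4.93 to 5.26, with 4, 5 and 4 of the 7 markers below the array median. On amplified ES arrays it lay at 6.79 to 7.02 at day 0 and 5.13 to 5.36 at day 5. Of 7 visceral endoderm markers 4 rose in ES cells, 4 in ST8 and 5 in ST5, with list means of 5.38 to 5.86, 5.64 to 6.49 and 6.53 to 6.74 at day 5. Among 7 node and notochord markers, a tissue where Nodal and Cfc1 are at work in the embryo, 6 rose in ES cells, 4 in ST8 and 1 in ST5, where 1 fell. Pluripotent cell markers fell in 7 of 7 cases in every line. The part of these cells in the differences of the 7 genes was not tested.

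Few of these genes were called between the lines before differentiation. Between ST5 and ES cells at day 0 limma called 0 of 7 genes, with 4 at an unadjusted p under 0.05, where 3.22% of all genes were called. Nodal differed by -0.28 ± 0.09 (adjusted p = 0.138), and without ST5 day 0 replicate 1, whose 8.39 lay within the ES range, by -0.40 (adjusted p = 0.0188), with 2.26% of all genes called. In ST8 2 of 7 were called, both lower than in ES cells, beside 3.55% of all genes. These were Nodal at -0.53 ± 0.09 (adjusted p = 0.00373) and Lefty1 at -0.70 ± 0.14 (adjusted p = 0.0108), whose arrays did not overlap with those of ES cells. Cfc1 read higher in ST8 by 0.52 ± 0.15 without overlap and was not called (adjusted p = 0.0783) except with only these groups in the fit (0.00745). Between ST8 and ST5 at day 0 limma called 0 of 7, with 1 at an unadjusted p under 0.05, beside 0.0652% of all genes.

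At day 5 ST5 stood below ES cells in Tdgf1 and Cfc1. Tdgf1 was lower in ST5 at -3.45 ± 0.64 (adjusted p = 0.00226), with its highest array at 7.31 and the lowest ES array at 9.38. Cfc1 was lower in ST5 by -0.95 ± 0.15 (adjusted p = 0.00108), where the 3 ST5 arrays lay between 7.71 and 7.78 and the ES arrays between 8.60 and 8.85. These 2 of 7 genes were called beside 23.3% of all genes. Without ES day 5 replicate 1, 5 of 7 were called, with Lefty2 at -0.53 (adjusted p = 0.0237), Foxh1 at 0.65 (adjusted p = 0.000447) and Smad7 at -0.25 (adjusted p = 0.0214) as the additions, and 32.6% of all genes were called.

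Between ST8 and ES cells at day 5 limma called 0 of 7 genes, with 4 at an unadjusted p under 0.05, beside 0.958% of all genes. The call depended on single arrays. Tdgf1 differed by -0.43 ± 0.64 (adjusted p = 0.790), by 0.70 without ST8 replicate 2 (adjusted p = 0.229) and by -0.99 without ES replicate 1 (adjusted p = 0.380). Without ST8 day 5 replicate 2, Cfc1 was lower in ST8 by -0.82 (adjusted p = 0.000203; -0.57 with it) and Smad7 higher by 0.35 (adjusted p = 0.0325; 0.26 with it). Without ES day 5 replicate 1, Nodal was higher in ST8 by 0.40 (adjusted p = 0.0431; 0.37 with it) and Foxh1 by 0.61 (adjusted p = 0.00440; 0.35 with it), while Smad7 differed by 0.15 (adjusted p = 0.260). The share of all genes called was 5.42% and 5.19% in these 2 cases.

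Between the clones at day 5, Tdgf1 was higher in ST8 by 3.02 ± 0.64 (adjusted p = 0.00802) and Smad7 by 0.40 ± 0.09 (adjusted p = 0.00937). These were 2 of 7 genes beside 14.6% of all. Even the low ST8 array, at 7.81 for Tdgf1, lay above the highest ST5 array at 7.31. Without ST8 replicate 2 the Tdgf1 difference was 4.15 (adjusted p = 5.88e-07). Neither call was kept with only these groups in the fit (adjusted p = 0.136 and 0.116), without ST8 day 5 replicate 1 (2.51 and 0.36, adjusted p = 0.0546 and 0.0568) or without replicate 3 (2.40 and 0.36, adjusted p = 0.0554 and 0.0594).

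The day 5 response itself was compared between lines by testing the difference of the differences. ST5 and ES cells differed in 2 of 7 genes, beside 5.58% of all genes: Tdgf1 fell more in ST5, by -3.45 ± 0.91 (adjusted p = 0.0372), and Cfc1 rose less, by -1.34 ± 0.22 (adjusted p = 0.00380). The Cfc1 difference was called under every alternative and without any single array. That of Tdgf1 was lost on leaving out any 1 array of these groups other than ES day 5 replicate 1, with differences of -3.09 to -3.57 and adjusted p from 0.0614 to 0.103. The Tdgf1 call was also lost with a robust spread and intensity trend (adjusted p = 0.0628) and with a replicate block (adjusted p = 0.0524). Without ES day 5 replicate 1, 4 of 7 genes were called beside 16.4% of all genes, Nodal at 0.47 (adjusted p = 0.0364) and Foxh1 at 0.86 (adjusted p = 0.00160) among them.

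ST8 and ES cells differed in the response of 2 of 7 genes, beside 0.838% of all genes. Nodal fell in ES cells and not in ST8, a difference of 0.91 ± 0.13 (adjusted p = 0.00240) called under each alternative and without any single array. Cfc1 rose less in ST8, by -1.09 ± 0.22 (adjusted p = 0.0248), a call lost with only these groups in the fit (adjusted p = 0.112) and without ST8 day 5 replicate 1 or 3, ES day 0 replicate 1 or 2, or any ST8 day 0 array, with differences of -0.92 to -1.13 and adjusted p from 0.0520 to 0.0756. Without ES day 5 replicate 1, 4 of 7 genes were called beside 2.31% of all genes, Lefty1 at 0.90 (adjusted p = 0.0413) and Foxh1 at 0.87 (adjusted p = 0.00362) among them. Lefty1, at 0.85 ± 0.20 with all arrays, missed the threshold (adjusted p = 0.0629). Without ST8 day 5 replicate 2 the Smad7 responses differed by 0.52 (adjusted p = 0.0240; 0.44 with it). Both comparisons share the ES arrays. Between the responses of ST8 and ST5 limma called 0 of 7, with 4 at an unadjusted p under 0.05, beside 2.17% of all genes. Without ST8 day 5 replicate 2, 3 of 7 were called beside 19.8% of all genes: Tdgf1 at 4.15 (adjusted p = 3.32e-05; 3.02 with it), Smad7 at 0.44 (adjusted p = 0.0153; 0.36 with it) and Nodal at 0.40 (adjusted p = 0.0456; 0.46 with it). Nodal was also called there after quantile normalization (0.50, adjusted p = 0.0384) and with dim genes left out (adjusted p = 0.0412).

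In the embryo 3 of the 7 genes lay below the array median in each sorted population. Between foregut endoderm and ENDM1-negative cells limma called 0 of 7 genes, with 3 at an unadjusted p under 0.05, beside 8.14% of all genes. Cfc1 read 6.27, 6.25 and 6.16 in the foregut and 5.65, 5.94 and 5.78 in the comparison cells. These do not overlap, and the difference of 0.44 ± 0.13 missed the threshold (adjusted p = 0.0559). It passed with only these groups in the fit (0.0250), with dim genes left out (0.0361) and with a robust spread and intensity trend (0.0479). Foxh1 read 5.61, 5.62 and 5.51 in the foregut and 6.16, 5.69 and 6.22 in the comparison cells, lower by -0.45 ± 0.17 without overlap (adjusted p = 0.130), and it was called without ENDM1-negative replicate 2 (-0.61, adjusted p = 0.0496).

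Smad7 read 6.73, 6.66 and 6.85 in the foregut and 6.59, 6.49 and 6.42 in the ENDM1-negative cells, again without overlap (0.24 ± 0.11, adjusted p = 0.203). Nodal read 5.66, 5.97 and 5.82 against 5.73, 5.60 and 5.67, and Lefty1 5.25, 5.55 and 5.48 against 4.78, 5.42 and 5.91. Tdgf1 read 6.06, 5.25 and 4.86 in the foregut and 6.66, 5.34 and 4.91 in the comparison cells, so that in both populations replicate 1 was the highest. For Lefty2 the values were 6.46, 5.00 and 5.81 against 5.82, 5.91 and 5.96. The populations overlapped in these 4 genes, whose differences lay between -0.25 and 0.15.

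**Figure D4:**
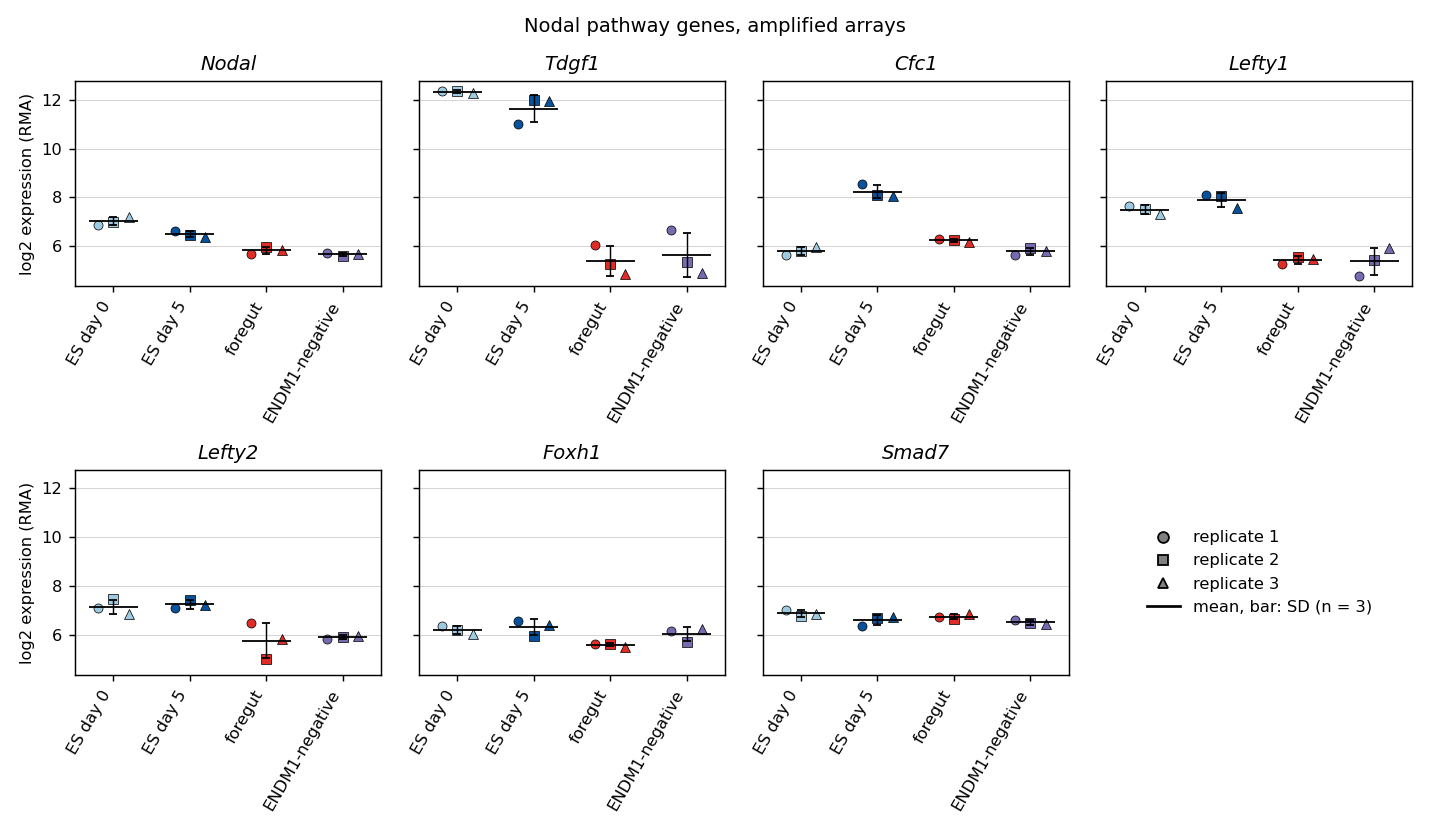
Log2 expression (vertical axis) of the 7 genes on the 12 amplified arrays (horizontal axis: ES cells at day 0 and day 5, foregut and ENDM1-negative cells of the embryo). Marker shapes give the replicate, lines the mean and bars the SD of 3 arrays; Tdgf1 lies between 10.99 and 12.38 in ES cells and between 4.86 and 6.66 in the embryo cells.

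Against ES cells at day 5 on amplified RNA, foregut endoderm was lower in 6 of 7 genes, beside 9.42% of all genes called lower. Tdgf1 was lower by -6.25 ± 0.41 (adjusted p = 6.48e-07), Lefty1 by -2.48 ± 0.23 (adjusted p = 1.18e-05) and Cfc1 by -2.001 ± 0.13 (adjusted p = 6.48e-07). Lefty2 was lower by -1.48 ± 0.27, Foxh1 by -0.73 ± 0.17 and Nodal by -0.66 ± 0.11 (adjusted p = 0.00180, 0.00743 and 0.000851). Smad7 differed by 0.15 ± 0.11 and was not called (adjusted p = 0.322; 0.041 without ES day 5 replicate 1). None of the 6 genes had overlapping arrays, which is a description, as the share of all genes without overlap was not counted. Over all genes 61.0% of the calls in this comparison were higher in the foregut, and 71.3% after quantile normalization, under which the same 6 directions held. ENDM1-negative cells were lower than ES cells at day 5 in 5 of 7 genes, beside 9.76% of all genes called lower, with Tdgf1 at -6.01 ± 0.41, Lefty1 at -2.53 ± 0.23, Cfc1 at -2.44 ± 0.13, Lefty2 at -1.34 ± 0.27 and Nodal at -0.81 ± 0.11. Foxh1 differed there by -0.28 ± 0.17 (adjusted p = 0.255; -0.14 without ES day 5 amplified replicate 1) and was called without ES day 5 amplified replicate 2 (-0.47, adjusted p = 0.0433).

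Against ES cells at day 0, foregut endoderm differed in 6 of 7 genes, beside 32.5% of all genes. Tdgf1 differed by -6.95 ± 0.41, Lefty1 by -2.06 ± 0.23, Lefty2 by -1.37 ± 0.27, Nodal by -1.19 ± 0.11 and Foxh1 by -0.62 ± 0.17. Cfc1 was higher in the foregut by 0.43 ± 0.13 (adjusted p = 0.0224), and this call did not hold after leaving out amplified ES day 0 replicate 1 (0.35, adjusted p = 0.0955) or 2 (0.42, 0.0603) or foregut replicate 1 (0.40, 0.0689) or 2 (0.41, 0.0579). The Foxh1 call (adjusted p = 0.0117) did not hold without amplified ES day 0 replicate 1 (-0.54, adjusted p = 0.0530). ENDM1-negative cells were lower than ES cells at day 0 in 5 of 7 genes, beside 11.1% of all genes called lower: Tdgf1 at -6.70 ± 0.41, Lefty1 at -2.12 ± 0.23, Nodal at -1.35 ± 0.11, Lefty2 at -1.23 ± 0.27 and Smad7 at -0.37 ± 0.11. For Smad7 (adjusted p = 0.0207) the call did not hold on removal of amplified ES day 0 replicate 1 (-0.30, adjusted p = 0.0909) or of ENDM1-negative replicate 2 (-0.36, 0.0528) or 3 (-0.33, 0.0747). These comparisons share the ES or the embryo arrays. The embryo cells also differ from the cultured cells in strain and in the RNA kit (RNeasy Micro against miRNeasy), which cannot be told apart from the tissue.

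Other cell types differed between the embryo populations. Visceral endoderm markers were higher in the foregut in 6 of 7 cases, with list means of 7.57 to 8.98 against 5.69 to 6.45 and none of them below the array median in the foregut. Endothelium markers were lower in the foregut in 5 of 6 cases, at 4.78 to 4.94 against 6.13 to 6.77, with 6 of 6 below the array median there. Of 6 surface and neural ectoderm markers 5 were lower in the foregut, at 5.80 to 5.90 against 7.07 to 7.40. The part of these cells in the values of the 7 genes was not tested.

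Among the other measured components of the pathway more rose than fell at day 5. Of 20 measured genes in a list of 21, 10 rose and 2 fell in ES cells, 13 rose and 3 fell in ST5, 12 rose and 2 fell in ST8, and 10 rose and 2 fell on amplified ES RNA. Of all genes 18.9%, 23.2%, 21% and 13% were called higher in these comparisons and 19.7%, 24.8%, 19.5% and 13.8% lower. The median difference of the 20 genes was 0.29, 0.54, 0.46 and 0.28. Gdf1 had no probe set of its own here. The greatest fall was that of Gdf3, a ligand of the same branch expressed in pluripotent cells, whose 9 unamplified day 0 arrays lay between 9.05 and 9.30 and its day 5 arrays between 4.66 and 5.02. On the log2 scale its difference was -4.11 for ES cells, -4.43 for ST5 and -4.33 for ST8, each with a standard error of 0.08 (adjusted p = 5.88e-15, 1.81e-15 and 2.53e-15).

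The convertases that cleave the Nodal precursor went in opposite directions. The difference of Pcsk6 was -1.80 ± 0.10 for ES cells, -1.89 ± 0.10 for ST5 and -2.21 ± 0.10 for ST8 (adjusted p = 6.86e-10, 2.65e-10 and 5.17e-11). Furin rose by 1.24 ± 0.13, 1.74 ± 0.13 and 1.51 ± 0.13 (adjusted p = 1.44e-06, 2.16e-08 and 1.57e-07). Smad3, which carries the signal to the nucleus, rose by 1.23 ± 0.13, 1.95 ± 0.13 and 1.34 ± 0.13 (adjusted p = 1.41e-06, 5.27e-09 and 5.24e-07). On amplified ES RNA Gdf3 differed by -2.70 ± 0.12, Pcsk6 by -0.49 ± 0.09 and Smad3 by 0.72 ± 0.08, and Acvr2a, a type II receptor of the pathway, rose by 1.03 ± 0.09. Tgif1, a repressor of Smad-driven transcription, was lower at day 5 in ST5, at -0.26 ± 0.07 (adjusted p = 0.00767).

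**Figure D5:**
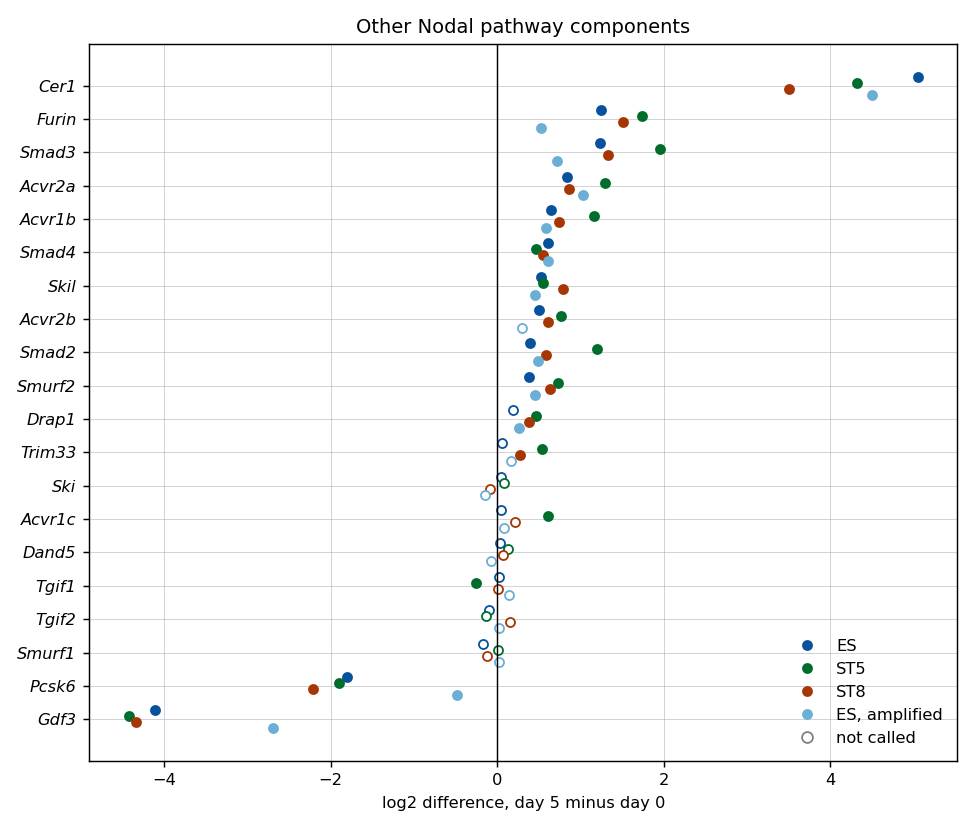
Differences of day 5 minus day 0 on the log2 scale (horizontal axis) for 20 other components of the Nodal pathway (vertical axis) in ES cells, ST5, ST8 and amplified ES cells. Filled points were called at an adjusted p under 0.05; Cer1 lies farthest right in each comparison, at 3.50 to 5.05, and Gdf3 farthest left, at -2.70 to -4.43.

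Cer1, a secreted antagonist of Nodal made by anterior endoderm, had the largest rise of that list in each of the 4 comparisons. In the embryo it read 7.97, 7.47 and 6.97 in the foregut and 6.16, 5.58 and 5.33 in the ENDM1-negative cells, which do not overlap, a difference of 1.78 ± 0.26 (adjusted p = 0.00132). With Skil, a repressor of Smads that was higher by 0.37 ± 0.09 (adjusted p = 0.0276), it made up the 2 of 20 components called higher in the foregut, and 0 were lower. Of all genes 8.14% were called in this comparison. With single arrays left out in turn, the components called higher ranged from 1 to 2. Already at day 0 Cer1 was higher than in ES cells in ST5, by 0.90 ± 0.20 (adjusted p = 0.0229), and in ST8, by 1.20 ± 0.20 (adjusted p = 0.00312).

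Genes known as targets of Nodal signalling were taken from a list of 12, of which 10 were measured. Sox17, Foxa2 and Hhex among them are also in the list of definitive endoderm markers, so the target counts and the marker counts are not separate readouts. In ES cells 8 rose and 0 fell, in ST5 6 rose and 2 fell, in ST8 7 rose and 1 fell, and on amplified ES RNA 7 rose and 0 fell. The shares of all genes called were 18.9%, 23.2%, 21% and 13% higher and 19.7%, 24.8%, 19.5% and 13.8% lower. The largest rises were those of Lhx1 at 3.45 ± 0.38 in ES cells and of Hhex, an anterior endoderm transcription factor, at 4.08 ± 0.49 in ST5 and 2.77 ± 0.49 in ST8. Otx2, an anterior homeobox gene, rose by 2.83 ± 0.19 on amplified ES RNA and by 2.14 ± 0.14 in ST8. The falls were those of the primitive streak genes Mixl1, at -1.45 ± 0.29 in ST5 and -1.03 ± 0.29 in ST8, and Wnt3, at -1.17 ± 0.18 in ST5.

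At day 0 several target genes were higher in the clones than in ES cells, while Nodal and Lefty1 were lower in ST8. Of the 10 targets, 6 were called higher in ST5 and 3 in ST8, and 0 lower in either, beside 3.22% and 3.55% of all genes called. Mixl1 was higher by 2.20 ± 0.29 in ST5 and 1.73 ± 0.29 in ST8 (adjusted p = 0.000334 and 0.00282), and Eomes, a T-box factor needed for endoderm, by 1.80 ± 0.22 and 1.38 ± 0.22 (adjusted p = 0.000181 and 0.00211). Lhx1 was higher by 1.66 ± 0.38 and 1.63 ± 0.38 (adjusted p = 0.0232 and 0.0242). Between the embryo populations 2 targets were higher in the foregut, Hhex by 1.66 ± 0.28 and Foxa2 by 1.25 ± 0.15, and 2 were lower, Eomes by -1.49 ± 0.25 and Mixl1 by -0.77 ± 0.17 (adjusted p = 0.00288, 0.000261, 0.00293 and 0.0159). There 8.14% of all genes were called.

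For each gene, the patterns most like its own were sought over the 18 unamplified arrays among 9969 genes whose mean lay above that of the median gene. Tdgf1 had the closest matches, with Cdk6 at r = 0.996, Lgals1 at 0.994 and Akap12 at 0.992. Those of Cfc1 were Trh at 0.985, Cers4 at 0.981 and Pam at 0.977, and those of Foxh1 were Sympk at 0.983, Pdpn at 0.964 and Galnt3 at 0.961. Lefty1 was nearest to Pdlim7 at 0.972, Bcar3 at 0.959 and Gipc1 at 0.946, and Smad7 to Tnip1 at 0.944, Nr3c1 at 0.941 and Dym at 0.940. Nodal had looser matches, Arhgap8 at 0.850, H2aj at 0.847 and Plpbp at 0.838, and Lefty2 the loosest, Mettl7a1 at 0.796, Rbm15 at 0.739 and Pfkm at 0.725. Among the 7 genes themselves, r was 0.832 for Tdgf1 and Smad7, 0.831 for Lefty1 and Foxh1, 0.801 for Cfc1 and Lefty1, and -0.706 for Nodal and Cfc1. It was 0.152 for Lefty1 and Lefty2. The arrays behind these values share lines, days and sorts.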

How the data were processed

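RNA of 30 samples was measured on Affymetrix arrays. The authors deposited log2 expression values of probe sets, made with RMA according to the submitters' processing notes. Its version, and whether RMA was run on both labellings at once, are not given in the sources used here, so levels were compared within each labelling. Of 35556 probe sets, 21789 name 1 gene in the annotation of the array, 1621 several and 12146 none here. For 999 genes with several probe sets the one with the highest mean was kept, which left 19938 genes. Arrays have no read depth, and the number of arrays limits the precision. No 2 arrays held identical values.

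Groups and replicates come from the labels. Tests used limma 3.58.1 (R 4.3.3, with the reader data.table at 1.17.8) with a mean per group, over the 18 unamplified and over the 12 amplified arrays, two-sided, with Benjamini-Hochberg adjustment over all genes at 0.05. The scripts were tested on simulated data. Within a labelling, same-numbered replicates did not deviate together (correlations of -0.648 to 0.505 without amplification and -0.069 to 0.087 with it). The number is thus no pairing within a labelling. A pairing of ES arrays across the labellings was not tested.

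The 7 genes and the gene lists were chosen with earlier results of these data known. Named genes are the 7 in every comparison, Cer1, Nanog and Pou5f1 as context, the 3 largest called rises and falls among other pathway components and target genes, and the 3 genes most like each of the 7 by Pearson r. The lists for which only counts or means are given hold pluripotent, definitive endoderm, visceral endoderm, fibroblast, node and notochord, lateral mesoderm and heart, endothelium and ectoderm markers. Of 8 lateral mesoderm and heart markers, 2 rose in each line at day 5, 1 rose on amplified ES RNA, and 1 was higher and 1 lower in the foregut. T, Gdf1, Tdh, Rhox5 and Fbn1 had no probe set naming them alone and are not used here. The alternatives were a fit of only the groups compared, quantile normalization, a common median, dim genes left out, averaging of a gene's probe sets, an intensity trend with robust spread, a replicate block and each array left out in turn.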

Additional observations from a re-analysis of the deposited data

Results flagged for a closer look

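In 4 cases the change between day 0 and day 5 differed between lines by a test of the difference itself. Tdgf1 fell more in ST5 than in ES cells, by -3.45 ± 0.91 (limma, adjusted p = 0.0372). Cfc1 rose less than in ES cells in ST5, by -1.34 ± 0.22 (adjusted p = 0.00380), and in ST8, by -1.09 ± 0.22 (adjusted p = 0.0248). Nodal fell in ES cells and not in ST8, a difference of 0.91 ± 0.13 (adjusted p = 0.00240). The calls of Tdgf1 in ST5 and of Cfc1 in ST8 were lost without several single arrays and in some other fits, as given above. Those of Nodal in ST8 and of Cfc1 in ST5 were kept throughout. The day 0 levels of the lines differ as well: Nodal started lower in ST8 than in ES cells by -0.53 ± 0.09, and Cfc1 started from means of 5.41 (ES cells), 5.80 (ST5) and 5.94 (ST8).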

How the results depend on the processing

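Of 1203 recomputed differences of single genes, 1113 kept their direction and their side of the threshold, 34 passed it in addition, 43 no longer passed it and 13 changed sign; of 512 recomputed counts, 470 stayed within 1.5 times the reported one. The causes were not tested. With only the groups compared in the fit, which leaves fewer arrays to estimate the spread, 0 of the 7 genes were called between ST8 and ST5 at day 5, 1 in the response of ST8 against ES cells and 1 between foregut and ENDM1-negative cells. Leaving out dim genes gave 1 in the response of ST8 against ST5, 1 between the embryo populations, 1 target gene lower in ST5 and 1 other component lower on amplified ES RNA. Quantile normalization gave 1 in the response of ST8 against ST5, and a robust spread with intensity trend 1 between the embryo populations. The replicate block, although the numbers do not pair the samples, gave 1 gene in the response of ST5 against ES cells, where the Tdgf1 call was lost (adjusted p = 0.0524), and 218 in place of 432 calls over all genes in the response of ST8 against ST5 and 5 in place of 13 between the clones at day 0. With each array left out in turn, genes called ranged from 0 to 1 between ST5 and ES cells at day 0, 2 to 5 at day 5, 0 to 2 between ST8 and ES cells at day 5 and 0 to 2 between the clones at day 5. They ranged from 1 to 4 in the response of ST5 and 1 to 4 in that of ST8 against ES cells, 0 to 3 in that of ST8 against ST5 and 0 to 1 between the embryo populations, where other components called higher and target genes called lower each ranged from 1 to 2. The share of all genes called moved with the setting too, as given above for several of the arrays left out. It is not given for dim genes left out, quantile normalization or the robust spread. A changed count is therefore not a result about the listed genes alone. Differences that changed sign ranged, for day 5 against day 0 in ES cells, from -0.37 to 0.35 for Lefty2 and -0.049 to 0.36 for Foxh1, on amplified RNA from -0.026 to 0.27 and -0.032 to 0.30, and in ST8 from -0.094 to 0.034 for Smad7. At day 5 Lefty2 between ST5 and ES cells ranged from -0.53 to 0.19 and Tdgf1 between ST8 and ES cells from -1.05 to 0.70. Between the embryo populations Tdgf1 ranged from -0.61 to 0.27, Lefty1 from -0.24 to 0.33 and Lefty2 from -0.49 to 0.24. With only the groups compared in the fit, calls over all genes numbered 1719 in place of 707 between ST8 and ES cells at day 0, 11 in place of 191 at day 5 and 3 in place of 2909 between the clones at day 5, and in the responses 1882 in place of 1112 (ST5 against ES cells), 88 in place of 167 (ST8 against ES cells) and 32 in place of 432 (ST8 against ST5).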
